A study of Mus musculus with 79 samples.

Results

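The endothelial and angiogenesis genes described here are a list of 38 mouse genes that mark the cells lining blood and lymph vessels or act in the growth of new vessels, taken by gene symbol from the table of the array platform. Of these, 37 were measured, out of 19505 genes in all, and Egfl7 was not analysed here. Each was measured by 1 transcript cluster, the probe group that Clariom S arrays use for a gene. RNA from 79 whole mammary tumors was measured, 1 array per tumor, and every tumor grew in a female C57BL/6J mouse. DIOSul mice ate a high fat diet (60%) that makes mice obese together with 140 ppm sulindac, an inhibitor of both cyclooxygenases, and DIO mice ate that diet alone. ConSul mice ate the control diet with 140 ppm sulindac, and Con mice the control diet alone. Tumors came from cells injected into mammary fat pad 4, and each of the 3 cell lines gave all of these groups. The lines are metM-Wnt-lung and, next to it, metM-Wnt-liver, which are mammary cancer cells recovered from a lung and a liver metastasis of M-Wnt cells, and E0771, a mouse triple-negative mammary carcinoma line. In the order DIOSul, DIO, ConSul and Con there were 7, 7, 6 and 6 metM-Wnt-lung tumors, 7, 7, 4 and 7 metM-Wnt-liver tumors, and 8, 8, 6 and 6 E0771 tumors.

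Endothelial cells hold together through the junction proteins VE-cadherin (Cdh5), PECAM-1 (Pecam1), claudin-5 (Cldn5) and ESAM (Esam). They respond to VEGF through the receptors Kdr, Flt1 and Flt4, while angiopoietins signal through Tek, with Tie1 as its partner, to steady or loosen the vessel wall. At the front of a growing vessel, tip cells express Esm1, Apln, Angpt2 and Dll4, and activated endothelium shows Vcam1, Sele and Selp to passing leukocytes. Values are the deposited log2 signals, so that a difference of 1 is a doubling, and the signal of one gene cannot be set against that of another. Pecam1 at 9.37 to 12.95 and Cdh5 at 8.95 to 12.39 were well above the low end of the scale in every tumor. Other pan-endothelial genes had low signals in some tumors, such as Clec14a (3.57 to 7.97), Nos3 (3.77 to 6.26) and Vwf (3.9 to 7.8). The same held for the receptor Flt4 (4.42 to 8.58). Of the 37 members, 21 had a mean signal above the median of all genes. In whole tumors, fewer endothelial cells and less RNA per cell cannot be told apart.

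Some metM-Wnt arrays stood apart from the rest of their lines. All 6 metM-Wnt-lung Con arrays and all 4 metM-Wnt-liver ConSul arrays had a wider spread of values, 13.13 to 13.38 between their 1st and 99th percentiles, against 12.88 to 13.08 in the other 41 metM-Wnt arrays. In the 28 E0771 arrays it was 12.97 to 13.11 in DIOSul, 12.77 to 13.05 in DIO, 13.06 to 13.2 in ConSul and 13.03 to 13.17 in Con arrays, so that its ConSul and Con groups reached into the wider range. The 2 metM-Wnt groups of wider spread were also high in adipocyte markers for their lines. The score of 7 such markers (the mean log2 value after each gene was centred on its mean over all arrays) was 1.8 to 5.01 in metM-Wnt-liver ConSul and 0.93 to 7.68 in metM-Wnt-lung Con arrays. It was -4.46 to 2.13 in metM-Wnt-lung DIO, -4.04 to -0.04 in metM-Wnt-lung ConSul and -4.92 to 2.49 in metM-Wnt-liver Con arrays. In E0771 every group was high in these markers, at 0.83 to 4.56 in DIOSul, 0.55 to 3.27 in DIO, 0.93 to 4.3 in ConSul and 1.19 to 7.04 in Con arrays. Whether the 10 metM-Wnt arrays of wider spread were processed apart from the others, or carry the label of another group, cannot be told from the values, and each metM-Wnt-lung difference from Con and metM-Wnt-liver difference from ConSul takes the labels as given. Skeletal muscle or keratinocyte markers were high in 23 arrays, of which 11 were of the 22 DIOSul, 2 of the 22 DIO, 6 of the 16 ConSul and 4 of the 19 Con tumors. Array medians were 6.33 to 6.81 in metM-Wnt-lung, 6.42 to 6.67 in metM-Wnt-liver and 6.29 to 6.59 in E0771 tumors.

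RefSeq start sites on mouse build GRCm38.p6 were found for 18 of the 37 measured genes. The 250 bases before the start are shown for the 3 receptors that were lower in ConSul than in Con metM-Wnt-lung tumors (Tie1, Tek and Kdr) and for 3 genes with some of the widest gaps between cell lines (Esm1, Apln and Sele). Capitals mark CAGGAA or its reverse TTCCTG. Its last letters, GGAA, are the core that ETS-family factors such as the endothelial factor Erg recognise.
Tie1 (chr4:118489850-118490099, - strand): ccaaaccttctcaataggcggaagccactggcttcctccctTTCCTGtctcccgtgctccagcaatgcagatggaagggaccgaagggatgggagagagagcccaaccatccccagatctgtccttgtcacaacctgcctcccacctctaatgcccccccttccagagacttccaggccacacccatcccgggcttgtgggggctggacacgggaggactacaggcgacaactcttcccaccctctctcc
Tek (chr4:94739039-94739288, + strand): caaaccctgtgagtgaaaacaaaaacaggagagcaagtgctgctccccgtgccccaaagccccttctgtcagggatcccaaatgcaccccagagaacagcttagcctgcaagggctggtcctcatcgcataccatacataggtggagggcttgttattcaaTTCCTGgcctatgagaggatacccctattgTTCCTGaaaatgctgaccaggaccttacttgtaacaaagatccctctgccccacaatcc
Kdr (chr5:75978456-75978705, - strand): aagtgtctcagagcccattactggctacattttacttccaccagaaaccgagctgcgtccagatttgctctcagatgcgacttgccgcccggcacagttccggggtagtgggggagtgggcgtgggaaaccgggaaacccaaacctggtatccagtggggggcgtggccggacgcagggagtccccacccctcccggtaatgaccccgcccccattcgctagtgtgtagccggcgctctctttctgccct
Esm1 (chr13:113209409-113209658, + strand): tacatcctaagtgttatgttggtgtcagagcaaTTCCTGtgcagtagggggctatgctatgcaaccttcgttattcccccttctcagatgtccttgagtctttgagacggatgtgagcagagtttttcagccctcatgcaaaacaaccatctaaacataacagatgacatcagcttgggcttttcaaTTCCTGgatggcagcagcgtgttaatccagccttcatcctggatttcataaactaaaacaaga
Apln (chrX:48034854-48035103, - strand): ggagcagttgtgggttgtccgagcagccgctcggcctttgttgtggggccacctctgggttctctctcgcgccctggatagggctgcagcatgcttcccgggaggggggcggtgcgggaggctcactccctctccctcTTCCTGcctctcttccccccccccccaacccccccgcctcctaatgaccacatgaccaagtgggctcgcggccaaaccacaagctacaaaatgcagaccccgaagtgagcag
Sele (chr1:164047984-164048233, + strand): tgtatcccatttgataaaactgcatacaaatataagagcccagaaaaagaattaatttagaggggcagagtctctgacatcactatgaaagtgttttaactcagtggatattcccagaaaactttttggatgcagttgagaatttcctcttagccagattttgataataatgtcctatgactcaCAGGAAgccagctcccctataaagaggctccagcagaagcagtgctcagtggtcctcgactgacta
Of the 18 sequences, 9 (50.0%) held these letters on either strand, as did 25.4% of the 27025 genes with a promoter in the same table. The letters were chosen after the sequences had been seen, and neither a match nor its absence says whether a factor binds. Tek and Esm1 held 2 matches each, Tie1, Apln and Sele held 1 each, and Kdr held 0 in this window.

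Between the cell lines, most of the list differed, and both metM-Wnt lines stood mostly above E0771. In metM-Wnt-lung tumors 28 genes were higher and 5 lower than in E0771 (limma, Benjamini-Hochberg adjusted p under 0.05), where 63.1% of all genes were called. Tumors of metM-Wnt-liver had 22 higher and 5 lower, where 62.8% of all genes were called. The median difference over the list was 1.16 and 0.58 on the log2 scale, and over all genes -0.02 and -0.02. With only DIOSul and DIO tumors in the fit, which leaves out all Con and ConSul tumors and so the 10 arrays of wider spread, 28 and 24 members were called. Of all 19505 genes, 11396 and 11513 were called there. Both comparisons share the E0771 tumors. According to the paper, all mice of a line were euthanized once tumors of any of its groups reached a size limit. Differences between lines therefore cannot be told apart from differences between their grafting experiments.

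Esm1 and Angpt1 had the widest gaps of the list in both metM-Wnt lines. Esm1, which encodes endocan, a secreted proteoglycan of tip cells, had a median log2 signal of 13.28 (10.02 to 15.81) in metM-Wnt-lung tumors and 12.86 (11.32 to 13.87) in those of metM-Wnt-liver, against 4.87 (3.26 to 7.02) in E0771, where the ranges are over all arrays of a line. Angpt1, the ligand that activates Tek, was at 13.0 (10.12 to 14.6) and 13.49 (11.36 to 14.43) in the same lines, against 6.22 (4.72 to 7.96) in E0771 tumors. For both of these genes all 51 metM-Wnt arrays lay above all 28 E0771 arrays, which was so for 380 of all genes (1.95%). Their differences from E0771 were 8.06 (SE 0.25, adjusted p = 1.41e-42) for Esm1 and 6.72 (SE 0.22, adjusted p = 3.81e-40) for Angpt1 in metM-Wnt-lung tumors. For metM-Wnt-liver they were 7.75 (SE 0.25, adjusted p = 8.43e-41) and 7.08 (SE 0.23, adjusted p = 7.17e-41).

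Apln, the peptide ligand that tip cells send to the apelin receptor Aplnr, was at 10.25 (9.19 to 13.62) in metM-Wnt-lung tumors and 10.31 (8.0 to 11.71) in those of metM-Wnt-liver, against 6.35 (4.55 to 8.6) in E0771. Vcam1, the adhesion molecule to which leukocytes attach through integrin alpha-4, was at 13.51 (12.5 to 14.66) and 13.6 (12.33 to 14.2), against 9.97 (6.95 to 12.35). The metM-Wnt-lung range of both genes lay wholly above that of E0771 (4 members in all, where 2.78% of all genes did), while the metM-Wnt-liver range overlapped its upper end. Apln differed by 4.21 (SE 0.26, adjusted p = 2.19e-24) and 3.68 (SE 0.27, adjusted p = 8.87e-21) and Vcam1 by 3.65 (SE 0.17, adjusted p = 1.44e-30) and 3.6 (SE 0.18, adjusted p = 1.41e-29) from E0771, metM-Wnt-lung given before metM-Wnt-liver. Flt1, a VEGF receptor that also acts as a decoy, was higher by 2.35 (SE 0.15, adjusted p = 2.15e-24) and 1.68 (SE 0.15, adjusted p = 1.14e-16). Emcn, the endothelial sialomucin endomucin, was higher by 2.14 (SE 0.17, adjusted p = 2.46e-19) in metM-Wnt-lung, and S1pr1, the sphingosine-1-phosphate receptor of endothelium, by 1.95 (SE 0.16, adjusted p = 1.18e-17) in metM-Wnt-liver tumors.

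**Figure D1:**
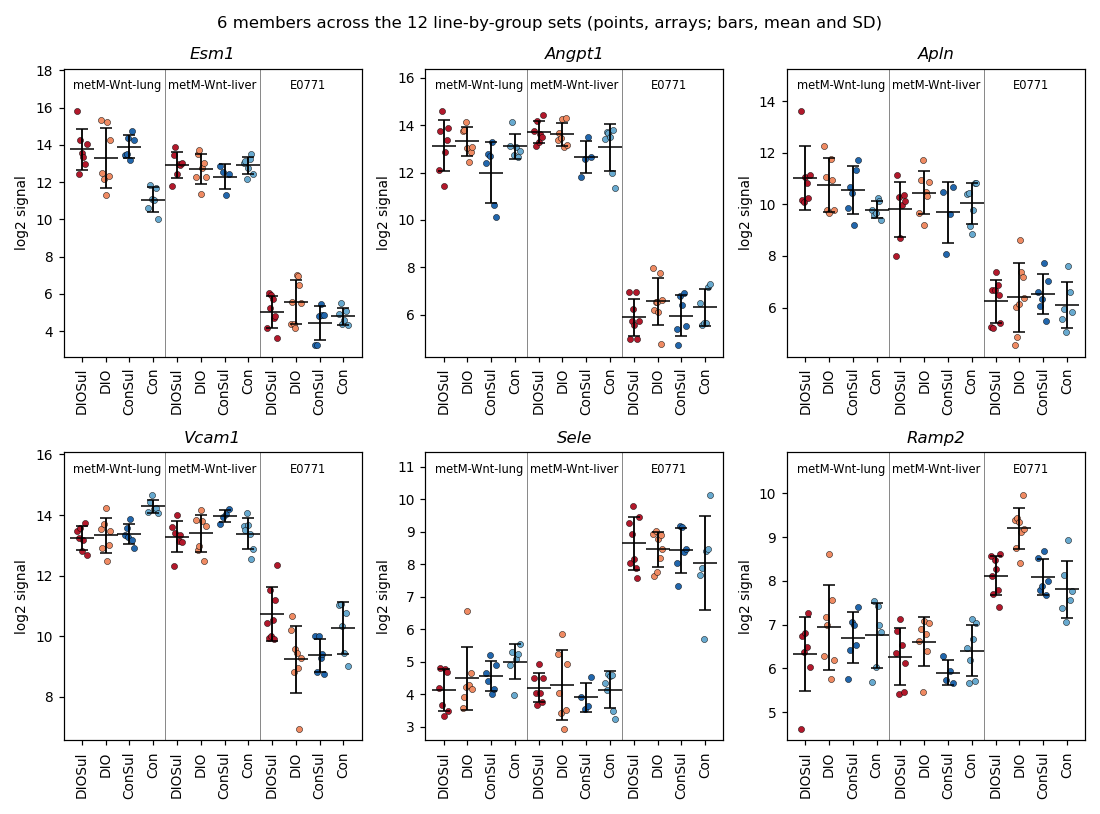
Log2 signal (vertical axis) of 6 genes in every array of the 12 line-by-group sets, with bars for the mean and SD of a group. Esm1, Angpt1, Apln and Vcam1 sit high in both metM-Wnt lines and low in E0771, with Esm1 medians of 13.28, 12.86 and 4.87, and Sele and Ramp2 are the other way round.

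A further 5 members were lower in both metM-Wnt lines than in E0771. Sele, the E-selectin on which leukocytes roll, was at 4.53 (3.32 to 6.56) in metM-Wnt-lung tumors and 4.02 (2.93 to 5.86) in those of metM-Wnt-liver, against 8.43 (5.69 to 10.13) in E0771, so that the ranges met only at their ends. Ramp2, which with Calcrl forms the adrenomedullin receptor, was at 6.77 (4.62 to 8.62) and 6.4 (5.41 to 7.13), against 8.35 (7.05 to 9.96), with some overlap. The differences were -3.85 (SE 0.21, adjusted p = 2.2e-27) and -4.27 (SE 0.21, adjusted p = 2.64e-29) for Sele and -1.62 (SE 0.17, adjusted p = 1.49e-13) and -2.01 (SE 0.17, adjusted p = 5.74e-17) for Ramp2. Eng, the TGF-beta co-receptor endoglin, differed from E0771 by -1.1 (SE 0.11, adjusted p = 6.17e-14) and -1.16 (SE 0.12, adjusted p = 2.35e-14), Esam by -0.5 (SE 0.13, adjusted p = 0.000564) and -1.17 (SE 0.13, adjusted p = 4.25e-12), and Lyve1, the hyaluronan receptor of lymphatic endothelium that some macrophages also carry, by -2.17 (SE 0.52, adjusted p = 0.000177) and -3.27 (SE 0.53, adjusted p = 1.17e-07).

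By role, all 5 VEGF and angiopoietin receptors were higher in metM-Wnt-lung than in E0771 tumors (Flt1 2.35, Tie1 1.36, Flt4 1.16, Kdr 0.68, Tek 0.64), as were 3 of 5 in metM-Wnt-liver, without Kdr (-0.34) and Tek (-0.04). Both angiopoietin ligands were called in both lines, with Angpt2, the antagonist ligand, at 1.45 and 1.13. Of 15 pan-endothelial genes 12 and 10 were higher, led by Plvap, the protein of fenestral diaphragms (2.33 and 1.74), and of 3 transcription factors 2 and 2, Sox18 (1.27 and 0.65) and Erg (0.99 and 0.51). Dll4, the Notch ligand of tip cells, was higher by 1.36 and 0.94, and Prox1, the master factor of lymphatic identity, by 1.0 in metM-Wnt-lung tumors. Sox17, Notch4, Icam2 and Selp were called in none of the comparisons between lines.

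Partner genes outside the list also differed between lines. Adm, the adrenomedullin peptide that binds the Ramp2 receptor, was lower than in E0771, with a difference of -5.89 (SE 0.25, adjusted p = 1.07e-33) in metM-Wnt-lung tumors and -6.03 (SE 0.26, adjusted p = 1.37e-33) in those of metM-Wnt-liver, so that it and Ramp2 were low in the same lines. Vegfc, a ligand of Flt4, was higher by 2.76 (SE 0.13, adjusted p = 5.67e-31) and 2.45 (SE 0.13, adjusted p = 2.32e-27). Of 19 other endothelial genes 15 stood higher and 3 lower in metM-Wnt-lung tumors, and 14 and 3 in those of metM-Wnt-liver, with Efnb2, the ephrin of arterial endothelium, at 5.64 and 5.06 and Cd34, a sialomucin of endothelium and progenitor cells, at 5.03 and 5.18. Fibroblast markers, 6 in number, were also higher (5 and 4 called, with 1 lower in each line) and all 7 adipocyte markers lower in both metM-Wnt lines. With the adipocyte score and the muscle score as covariates the members called against E0771 were 31 in metM-Wnt-lung (28 of them higher) and 29 in metM-Wnt-liver tumors (25 of them higher). Of all 19505 genes, 11217 and 11063 were called in that setting. The part of the fibroblast markers was not tested. Which cells carried these signals cannot be read from whole-tumor RNA.

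Between the metM-Wnt lines, 15 genes were higher in metM-Wnt-lung than in metM-Wnt-liver tumors and 0 lower (limma, adjusted p under 0.05), where 17.3% of all genes were called. Among them were Kdr (1.02, SE 0.17, adjusted p = 2.1e-06), Prox1 (1.01, SE 0.19, adjusted p = 4.65e-05), Pecam1 (0.65, SE 0.13, adjusted p = 5.02e-05), Flt4 (0.73, SE 0.15, adjusted p = 9.37e-05), Tie1 (0.65, SE 0.13, adjusted p = 0.000122) and Cldn5 (1.14, SE 0.23, adjusted p = 0.000123). These means include the metM-Wnt-lung Con and the metM-Wnt-liver ConSul tumors. With only DIOSul and DIO tumors, metM-Wnt-lung tumors had 4 members higher and 1 lower, Cldn5 (1.4, SE 0.29, adjusted p = 0.00034), Flt1 (0.82, SE 0.18, adjusted p = 0.00098), Pecam1 (0.68, SE 0.16, adjusted p = 0.0017), Esam (0.68, SE 0.16, adjusted p = 0.00141) and, in the other direction, S1pr1 (-0.78, SE 0.21, adjusted p = 0.00658). In that fit 3225 of all 19505 genes were called. All 5 receptors were called with every group in the fit, and Flt1 alone of them with only DIOSul and DIO tumors. That fit leaves out all Con and ConSul tumors, not only the arrays of wider spread.

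**Figure D2:**
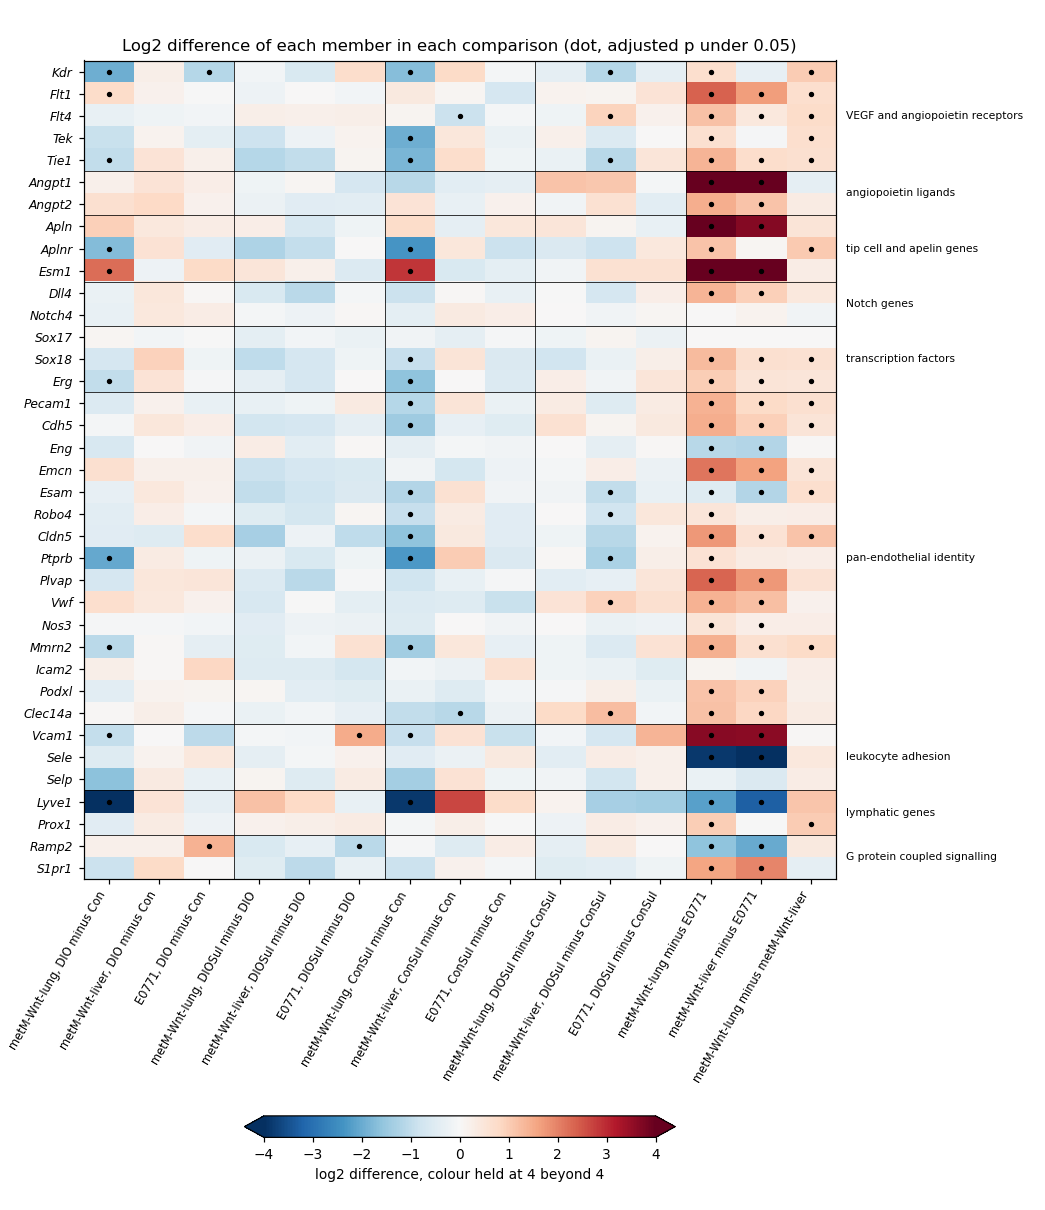
Log2 difference (colour) of the 37 measured genes (rows, by role) in 12 comparisons within lines and 3 between lines (columns), with a dot at adjusted p under 0.05. Dots mark 33 and 27 genes in the columns against E0771, where 63.1% and 62.8% of all genes were called. In metM-Wnt-lung DIO minus Con they mark 10 genes, 27% of the list against 27.4% of all genes. In its ConSul minus Con column they mark 16, 43.2% against 17.4%. The columns metM-Wnt-liver DIO minus Con and DIOSul minus DIO have 0, as for all genes.

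In E0771 tumors, Ramp2 was higher and Kdr lower in DIO than in Con mice, and Ramp2 was lower and Vcam1 higher in DIOSul than in DIO mice. These were the members called, 1 in each direction in DIO against Con (where 5.17% of all genes were called) and 1 in each direction in DIOSul against DIO (where 5.03% were called), so that the list was called about as often as other genes (5.41% of its members in each comparison). Both comparisons share the DIO tumors. The spread of values was 12.77 to 13.05 in DIO and 13.03 to 13.17 in Con arrays, which barely overlap. In DIOSul arrays it was 12.97 to 13.11. The part of this spread was not tested in E0771. Ramp2 had a median log2 signal of 8.2 (7.4 to 8.61) in DIOSul, 9.27 (8.41 to 9.96) in DIO, 7.95 (7.68 to 8.67) in ConSul and 7.67 (7.05 to 8.93) in Con tumors. The DIO tumors were the high group, overlapping the others at its lower end. The difference was 1.4 (SE 0.26, adjusted p = 0.00431) for DIO minus Con and -1.08 (SE 0.24, adjusted p = 0.00566) for DIOSul minus DIO by limma, and neither call was lost when any array was left out. Arrays high in muscle or skin genes were 3 of 8 in the DIOSul, 0 of 8 in the DIO and 1 of 6 in the Con group. Without them, a setting chosen after seeing the data, DIO against Con called 1 member, Ramp2 (1.31, SE 0.29, adjusted p = 0.0234), and DIOSul against DIO called 0, with Ramp2 at -0.93 (SE 0.29, adjusted p = 0.0938). Of all 19505 genes, 595 and 533 were called there.

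Kdr, the main VEGF receptor of blood vessels, was at 9.78 (9.15 to 11.38) in DIOSul, 9.28 (7.83 to 9.98) in DIO, 10.39 (9.1 to 10.99) in ConSul and 10.36 (9.93 to 10.61) in Con tumors. It was lower in DIO than in Con tumors with a log2 difference of -1.14 (SE 0.31, adjusted p = 0.0339), with the DIO and Con ranges overlapping only at their ends, and the DIOSul minus DIO value of 0.69 (SE 0.29, adjusted p = 0.191) did not pass. The call was lost without Con replicate 1, 2, 3 or 5 or DIO replicate 1, 3 or 8 (adjusted p 0.0527 to 0.0734). It was also lost with the adipocyte score and the muscle score as covariates (-1.04, SE 0.34, adjusted p = 0.111) and without the arrays high in muscle or skin genes (-1.09, SE 0.33, adjusted p = 0.0711). Vcam1 was at 10.49 (9.92 to 12.35) in DIOSul, 9.38 (6.95 to 10.68) in DIO, 9.35 (8.77 to 10) in ConSul and 10.55 (9.03 to 11.06) in Con tumors, with wide overlap between groups. It was higher in DIOSul than in DIO tumors by 1.5 (SE 0.42, adjusted p = 0.032), and its DIO minus Con value was -1.03 (SE 0.45, adjusted p = 0.179). That call was lost on leaving out DIO replicate 3, 6, 7 or 8, and equally DIOSul replicate 3, 7 or 8 (adjusted p 0.0514 to 0.0766). With only the DIOSul and DIO groups in the fit the adjusted p was 0.0597, with both scores as covariates 0.0598 (1.45, SE 0.43), and without the arrays high in muscle or skin genes 0.0735 (1.66, SE 0.49).

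The pan-endothelial genes Pecam1 and Cdh5 did not pass in either comparison, with -0.3 (SE 0.22, adjusted p = 0.476) and 0.27 (SE 0.22, adjusted p = 0.529) for DIO minus Con and 0.36 (SE 0.21, adjusted p = 0.356) and -0.38 (SE 0.21, adjusted p = 0.339) for DIOSul minus DIO. The median over the list was -0.01 for DIO minus Con and -0.16 for DIOSul minus DIO, against 0.00042 and -0.02 over all genes. Of 10 leukocyte genes whose products meet the adhesion molecules, 3 were lower in DIO than in Con tumors, among them Itga4, the alpha-4 integrin that binds Vcam1 (-1.86, SE 0.44, adjusted p = 0.0162), and 6 were higher in DIOSul than in DIO tumors, among them Itga4 (2.3, SE 0.41, adjusted p = 0.000698), Itgal, the alpha chain of LFA-1 (1.82, SE 0.28, adjusted p = 0.000127), and Selplg, the P-selectin ligand (1.62, SE 0.26, adjusted p = 0.000207). Calcrl, the receptor chain that Ramp2 carries to the surface, had 0.83 (SE 0.27, adjusted p = 0.0692) for DIO minus Con and -0.43 (SE 0.25, adjusted p = 0.368) for DIOSul minus DIO, and Adm -0.0029 (SE 0.36, adjusted p = 0.998) and -0.4 (SE 0.33, adjusted p = 0.559), none of which passed.

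**Figure D3:**
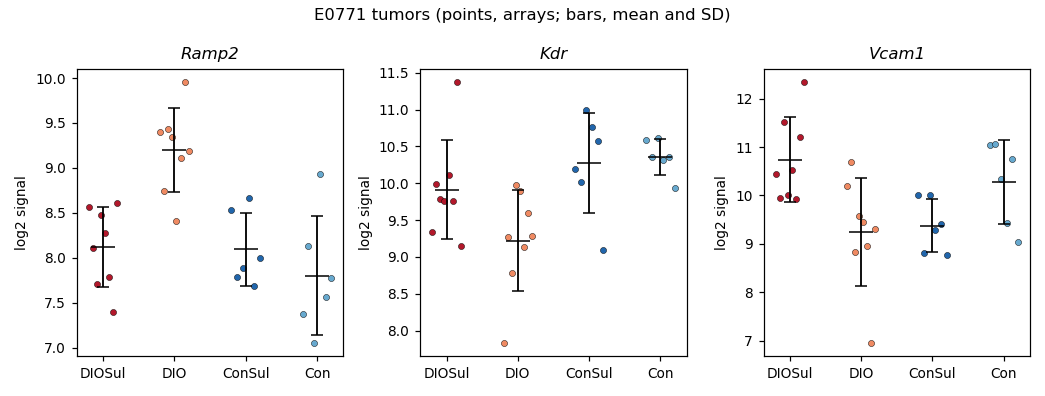
Log2 signal (vertical axis) of Ramp2, Kdr and Vcam1 in E0771 tumors of the DIOSul, DIO, ConSul and Con groups (points, arrays; bars, mean and SD). Ramp2 is highest in the DIO group, with a median of 9.27, and Kdr is lowest there, at 9.28.

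With sulindac in control mice, 0 members and 0 of all genes (0%) were called in ConSul against Con E0771 tumors by limma, where 4 members were lower and 0 higher at an unadjusted p under 0.05, against 4.38% and 4.01% of all genes. The members with the smallest p there were Vwf, the von Willebrand factor stored by endothelial cells (-0.89, SE 0.25, adjusted p = 0.286), Flt1 (-0.66, SE 0.26, adjusted p = 0.485) and Aplnr (-0.85, SE 0.36, adjusted p = 0.524). Between DIOSul and ConSul tumors 0 members were called, where 0.0974% of all genes were. At an unadjusted p under 0.05, 5 members were higher and 0 lower, against 6.22% and 6.83% of all genes. Vcam1 (1.36, SE 0.45, adjusted p = 0.178), Vwf (0.65, SE 0.24, adjusted p = 0.221) and Mmrn2, a matrix protein of the vessel wall (0.59, SE 0.26, adjusted p = 0.33), had the smallest p. The sulindac effect in DIO minus that in Con mice also called 0 members, where 0.405% of all genes were called. The values nearest the threshold in that test were Ramp2 (-1.37, SE 0.36, adjusted p = 0.0769), Vcam1 (2.39, SE 0.64, adjusted p = 0.0769) and Icam2, an endothelial adhesion molecule (-1.32, SE 0.43, adjusted p = 0.144). Ramp2 passed without Con replicate 4 (adjusted p = 0.0179) or DIO replicate 5 (0.0444), and Vcam1 without Con replicate 4 (0.0438) or Con replicate 6 (0.0436).

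In metM-Wnt-lung tumors 25 of the 37 endothelial genes had their highest group mean in the Con group. The share of all genes for which this held was not computed, so that the count cannot be called particular to the list. In DIO against Con tumors 2 members were higher and 8 lower, 27% of the list, where 27.4% of all genes were called. In ConSul against Con tumors 1 was higher and 15 lower, 43.2% of the list, where 17.4% of all genes were called. Both comparisons rest on the same 6 Con arrays, which are those of wider spread and of high adipocyte markers. The medians over the list were -0.42 and -0.85, against 0.04 and 0.03 over all genes. A term for the arrays of wider spread was used in a fit of both metM-Wnt lines, which gives the same values for both. There 0 members were called in either comparison, where 0.672% and 0.0513% of all genes were. With the adipocyte score and the muscle score as covariates 2 and 1 were called, as were 342 and 531 of all 19505 genes. Leaving out the tumors with high muscle or skin genes, which was decided after seeing the data, 6 and 5 were called, as were 2334 and 710 of all genes. With those covariates the calls were Clec14a (2.74, SE 0.53, adjusted p = 0.00821) and Ramp2 (2.41, SE 0.57, adjusted p = 0.03) as higher in DIO than in Con, and Dll4 (-1.92, SE 0.5, adjusted p = 0.0383) as lower in ConSul than in Con tumors, and these 3 genes were not called without them. Spread, adipocyte markers and the Con group cannot be told apart within this line.

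Tie1, the orphan receptor that pairs with Tek, had a median log2 signal of 6.81 (6.33 to 7.99) in DIOSul, 8.27 (7.44 to 8.77) in DIO, 7.28 (6.43 to 8.07) in ConSul and 9.16 (8.86 to 9.56) in Con tumors. Kdr was at 10.41 (8.87 to 11.21) in DIOSul, 10.34 (8.98 to 10.94) in DIO, 10.21 (9.94 to 11.14) in ConSul and 12.01 (11.82 to 12.36) in Con tumors. For both receptors all Con tumors lay above all DIO and all ConSul tumors. Tie1 differed by -0.97 (SE 0.28, adjusted p = 0.012) in DIO and -1.84 (SE 0.29, adjusted p = 0.000138) in ConSul tumors from Con, and Kdr by -1.97 (SE 0.35, adjusted p = 0.000213) and -1.71 (SE 0.37, adjusted p = 0.00231). In the DIO against Con comparison 2 members were wholly below, where 4.02% of all genes were. With the spread term, in the fit of both metM-Wnt lines, the DIO minus Con value of Tie1 was 0.45 (adjusted p = 0.406). That fit gives the same value for both lines. Since all metM-Wnt-lung Con arrays are of wider spread, it holds no separate DIO minus Con value of metM-Wnt-lung.

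Ptprb, the endothelial phosphatase that acts on Tek and VE-cadherin, was at 6.37 (4.9 to 7.28) in DIOSul, 6.68 (4.64 to 8.44) in DIO, 6.49 (5.07 to 6.77) in ConSul and 8.27 (7.91 to 9.69) in Con tumors, and all ConSul tumors lay below all Con tumors while DIO tumors overlapped them. It was lower than in Con, with differences of -2.03 (SE 0.47, adjusted p = 0.00243) in DIO and -2.31 (SE 0.49, adjusted p = 0.00206) in ConSul tumors. Lyve1 was at 9.3 (6.94 to 10.35) in DIOSul, 7.06 (4.12 to 12.18) in DIO, 8.92 (6.18 to 11.12) in ConSul and 12.76 (9.53 to 14.47) in Con tumors, spread over many log2 units within each group. It had the largest fall of the list in both comparisons, -4.9 (SE 0.95, adjusted p = 0.000483) in DIO and -3.85 (SE 0.99, adjusted p = 0.00878) in ConSul tumors. With the adipocyte score and the muscle score as covariates the DIO minus Con values turned to 1.18 for Lyve1 and 0.36 for Ptprb, and neither passed (adjusted p = 0.631 and 0.839).

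Esm1 went the other way. Its median was 13.55 (12.42 to 15.81) in DIOSul, 12.48 (11.28 to 15.35) in DIO, 13.87 (13.2 to 14.73) in ConSul and 11.08 (10.02 to 11.82) in Con tumors, with every ConSul tumor above every Con tumor. It was higher than in Con by 2.24 (SE 0.58, adjusted p = 0.00519) in DIO and 2.86 (SE 0.6, adjusted p = 0.00177) in ConSul tumors. Flt1 was higher in DIO than in Con tumors by 0.75 (SE 0.28, adjusted p = 0.0448), a call that was lost on leaving out Con replicate 1, 4 or 6, ConSul replicate 1, 2 or 6, DIO replicate 1, 2, 3, 5 or 7, or DIOSul replicate 5 or 6 (13 of the arrays, adjusted p up to 0.145). Con replicate 6, the low array of its group, gave the 0.145. Vcam1 (-0.95, SE 0.22, adjusted p = 0.00275), Mmrn2 (-1.09, SE 0.28, adjusted p = 0.0059), Erg (-0.99, adjusted p = 0.0226) and Aplnr (-1.73, adjusted p = 0.0285) were also lower in DIO than in Con tumors, whereas Pecam1 (-0.53, SE 0.23, adjusted p = 0.0857) and Cdh5 (-0.07, SE 0.22, adjusted p = 0.852) did not pass. Pecam1 passed without DIO replicate 4 (adjusted p = 0.0235).

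In ConSul against Con tumors 7 of 15 pan-endothelial genes, 3 of 5 receptors and 2 of 3 transcription factors were lower. Cdh5 was at 10.56 (9.8 to 10.83) in ConSul and 12.05 (11.32 to 12.16) in Con tumors, and Pecam1 at 11.13 (10.8 to 11.77) and 12.37 (11.83 to 12.95), with no overlap for either gene. The differences were -1.41 (SE 0.23, adjusted p = 0.000201) for Cdh5, -1.16 (SE 0.24, adjusted p = 0.00165) for Pecam1, -1.62 (SE 0.33, adjusted p = 0.0015) for Erg and -1.4 (SE 0.3, adjusted p = 0.00191) for Mmrn2. Robo4, Vcam1, Tek, Aplnr, Esam, Cldn5 and Sox18 were also lower, with differences of -0.91 (Robo4) to -2.37 (Aplnr). In 9 genes every ConSul tumor lay below every Con tumor, where 4.75% of all genes did, and 1 gene lay above (2.92%). Of the 19 other endothelial genes 6 were lower and 0 higher, led by Thbd, the anticoagulant receptor thrombomodulin (-2.99, SE 0.35, adjusted p = 2.58e-06), and of 10 pericyte and smooth muscle markers 4 were lower. All 7 adipocyte, 4 of 6 fibroblast and 6 of 6 macrophage markers were lower in the same comparison. With the adipocyte score and the muscle score as covariates none of the 16 members kept its call, and the part of the fibroblast and macrophage markers was not tested.

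**Figure D4:**
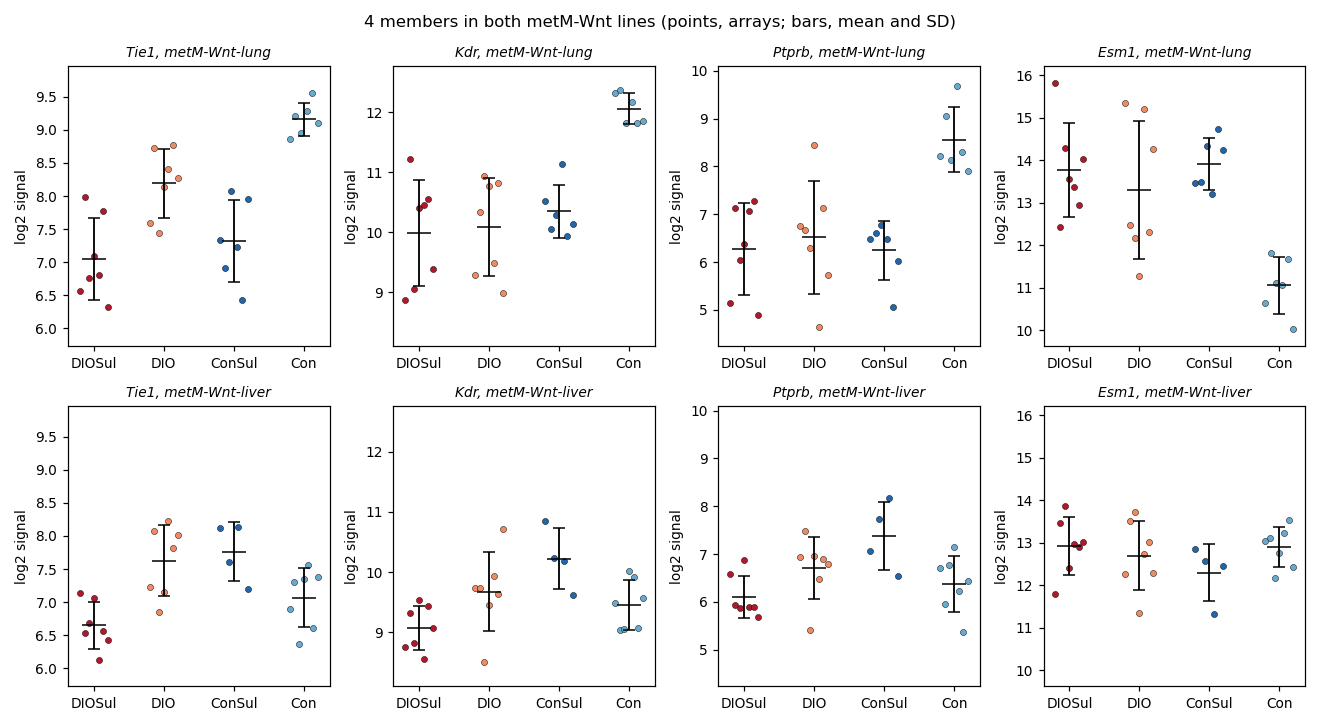
Log2 signal (vertical axis) of Tie1, Kdr, Ptprb and Esm1 in the DIOSul, DIO, ConSul and Con groups of metM-Wnt-lung (top) and metM-Wnt-liver tumors (bottom), with points for arrays and bars for mean and SD. In metM-Wnt-lung, Con is the high group for the receptors (Tie1 median 9.16) and the low group for Esm1 (11.08), and in metM-Wnt-liver the DIOSul tumors are low in Tie1 (6.57).

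In DIOSul against DIO metM-Wnt-lung tumors 0 members passed by limma (0.246% of all genes called), and 10 were lower and 0 higher at an unadjusted p under 0.05, against 5.53% and 6.25% of all genes. Neither group holds an array of wider spread. Tie1 came nearest, with -1.15 (SE 0.27, adjusted p = 0.0646), followed by Cdh5 (-0.74, SE 0.21, adjusted p = 0.132), Esam (-0.99, SE 0.29, adjusted p = 0.137) and Sox18, a factor of vessel and lymphatic development (-1.02, SE 0.3, adjusted p = 0.147). Tie1 passed without DIO replicate 3 (adjusted p = 0.0231), DIO replicate 4 (0.0457) or DIOSul replicate 2 (0.0497). Muscle or keratinocyte markers were high in 5 of 7 DIOSul and 1 of 7 DIO tumors of this line. Without those tumors, or with the adipocyte score and the muscle score as covariates, 0 members passed as well, where 0 and 59 of all 19505 genes did. With all 3 lines in 1 fit Tie1 (adjusted p = 0.0119) and Esam (adjusted p = 0.0424) passed, where 144 of all genes did. DIOSul against ConSul tumors called 0 members, where 0.226% of all genes were called. At an unadjusted p under 0.05, 3 members were higher and 1 lower, against 4.85% and 4.48% of all genes. By limma, Cdh5 (0.6, adjusted p = 0.327), Sox18 (-0.755, adjusted p = 0.42) and Angpt1 (1.15, adjusted p = 0.421) had the smallest p.

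The sulindac effect differed between DIO and Con mice for 2 members in metM-Wnt-lung tumors, both with a higher value in DIO mice, where 8.99% of all genes were called. The difference was 5.03 (SE 1.35, adjusted p = 0.0209) for Lyve1 and 1.61 (SE 0.5, adjusted p = 0.0429) for Kdr, and it includes the Con tumors of wider spread. Kdr lost the call on leaving out any of 16 arrays (adjusted p 0.0511 to 0.0740), namely Con replicate 1, 2, 4 or 6, ConSul replicate 1, 2, 3, 5 or 6, DIO replicate 1, 5 or 7, or DIOSul replicate 2, 4, 5 or 6. With the adipocyte score and the muscle score as covariates 0 members passed, where 110 of all 19505 genes did, and the Lyve1 value turned to -0.81 (adjusted p = 0.826).

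Among metM-Wnt-liver tumors the comparisons with both groups free of wider spread, DIO against Con and DIOSul against DIO, each called 0 members and 0 of all genes (0% and 0%) by limma. In DIO against Con, 32 of 37 differences were positive, where 50.4% of all genes were negative. The median was 0.27 against -0.0029 over all genes. At an unadjusted p under 0.05, 4 members were higher and 0 lower, as were 2.23% and 3.13% of all genes. In DIOSul against DIO, 31 were negative, as were 48.7% of all genes. The median was -0.43 against 0.01 over all genes. At an unadjusted p under 0.05, 12 members were lower and 0 higher, against 4.2% and 3.34% of all genes. Many members went up and down together within groups, so that their signs are not independent. These comparisons share the DIO tumors. Pecam1, Cdh5 and Kdr had 0.17, 0.44 and 0.22 for DIO minus Con. For DIOSul minus DIO they had -0.17, -0.67 and -0.6, and none of these values passed. The smallest p in the DIO against Con comparison were those of Sox18 (0.94, SE 0.34, adjusted p = 0.82), S1pr1 (0.77, SE 0.32, adjusted p = 0.894) and Tie1 (0.56, SE 0.23, adjusted p = 0.894), and in DIOSul against DIO those of Tie1 (-0.98, SE 0.23, adjusted p = 0.244), Esam (-0.8, SE 0.21, adjusted p = 0.302) and Robo4, a guidance receptor that keeps vessels tight (-0.71, SE 0.21, adjusted p = 0.342).

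The metM-Wnt-liver comparisons with ConSul rest on 4 arrays, all of wider spread and high in adipocyte markers. In ConSul against Con tumors 2 members were lower and 0 higher, where 11.4% of all genes were called. Clec14a, a C-type lectin of tumor vessels, was at 5.97 (4.95 to 6.51) in DIOSul and 5.82 (5.27 to 6.69) in DIO tumors, 4.16, 4.44, 4.54 and 5.03 in the 4 ConSul tumors, and 5.79 (4.74 to 6.58) in Con tumors. Flt4, the receptor of lymphatic VEGF, was at 5.8 (5.28 to 6.34) in DIOSul and 5.62 (5.13 to 6.33) in DIO tumors, 4.77, 4.78, 5.0 and 5.17 in the 4 ConSul tumors, and 5.82 (5.2 to 6.55) in Con tumors. Every ConSul tumor lay below every Con tumor for Flt4, as for 3.42% of all genes, and the lowest Con tumor overlapped ConSul for Clec14a. The differences were -1.12 (SE 0.32, adjusted p = 0.0256) and -0.85 (SE 0.25, adjusted p = 0.0304). Clec14a lost the call without ConSul replicate 1, 2 or 4 (adjusted p 0.0554 to 0.0885), and Flt4 without Con replicate 4 or 5 or ConSul replicate 2, 3 or 4 (0.0534 to 0.0828).

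In DIOSul against ConSul metM-Wnt-liver tumors 3 members were higher and 5 lower, 21.6% of the list, where 13.2% of all genes were called. Clec14a (1.22, SE 0.32, adjusted p = 0.0139), Flt4 (0.9, SE 0.25, adjusted p = 0.0207) and Vwf (0.92, SE 0.28, adjusted p = 0.0316) were higher. Tie1 was at 6.57 (6.13 to 7.14) in DIOSul and 7.82 (6.85 to 8.22) in DIO tumors, 7.2, 7.6, 8.12 and 8.13 in the 4 ConSul tumors, and 7.31 (6.36 to 7.56) in Con tumors, so that all DIOSul tumors lay below all ConSul tumors. Esam was at 6.69 (6.58 to 7.2) in DIOSul and 7.53 (7.06 to 7.9) in DIO tumors, 7.31, 7.58, 7.7 and 8.32 in the 4 ConSul tumors, and 7.08 (6.22 to 7.79) in Con tumors, again with DIOSul below ConSul throughout, and 4 members were wholly below where 4.68% of all genes were. Tie1 differed by -1.11 (SE 0.27, adjusted p = 0.00852) and Esam by -0.98 (SE 0.25, adjusted p = 0.0101). Kdr (-1.16, SE 0.3, adjusted p = 0.0115), Ptprb (-1.27, SE 0.34, adjusted p = 0.016) and Robo4 (-0.77, SE 0.25, adjusted p = 0.0399) were also lower. All 7 adipocyte markers were lower in the same comparison. In the fit of both metM-Wnt lines with the term for wider spread, 0 members passed, where 0.0513% of all genes were called. Ptprb stood at 0.20 (adjusted p = 0.888) there. Since all metM-Wnt-liver ConSul arrays are of wider spread, that fit holds no separate value of metM-Wnt-liver. Leaving out tumors with high muscle or skin genes, chosen after seeing the data, 2 passed, Kdr (-1.22, SE 0.34, adjusted p = 0.0384) and Clec14a (1.41, SE 0.39, adjusted p = 0.0358). Of all 19505 genes, 1122 passed in that setting.

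Of these 8 calls, those of Tie1 and Clec14a held whichever single array was left out. Esam was lost without ConSul replicate 3 (adjusted p = 0.0560), Kdr without ConSul replicate 1 (0.0633), Flt4 without ConSul replicate 2 or 4 (0.0559 and 0.0605) and Ptprb without ConSul replicate 2 or 3 (0.0527 and 0.0783). Vwf was lost without ConSul replicate 3 or 4 or DIOSul replicate 1 or 7 (0.0547 to 0.116), and Robo4 without ConSul replicate 1, 3 or 4 or DIOSul replicate 1, 3, 4 or 7 (0.0538 to 0.145). The sulindac effect in DIO minus that in Con mice was lower for 2 members and higher for 0, where 2.22% of all genes were called. These were Tie1 (-1.67, SE 0.36, adjusted p = 0.0147) and Esam (-1.4, SE 0.32, adjusted p = 0.0218), of which Esam was lost without ConSul replicate 3 (adjusted p = 0.0560). Neither passed without the tumors high in muscle or skin genes. The single effects that make up the Tie1 value were -0.98 in DIO and 0.7 in Con mice.

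Whether the DIO effect itself differed between lines was tested in a fit of all 12 groups, a comparison chosen after seeing the data. The DIO minus Con difference in metM-Wnt-lung was lower than in metM-Wnt-liver for 8 members and higher for 1, where 11.5% of all genes were called. These were Tie1 (-1.53, SE 0.36, adjusted p = 0.0031), Kdr (-2.19, SE 0.45, adjusted p = 0.000751), Ptprb (-2.37, SE 0.58, adjusted p = 0.00399), S1pr1 (-1.62, SE 0.45, adjusted p = 0.0114), Sox18, Erg, Aplnr and Lyve1, and in the other direction Esm1 (2.44, SE 0.69, adjusted p = 0.0131). Against E0771 it was lower for 3 members, Tie1 (-1.16, SE 0.36, adjusted p = 0.0394), Ptprb (-1.87, SE 0.58, adjusted p = 0.0374) and Lyve1 (-4.54, SE 1.46, adjusted p = 0.0444), where 6.72% of all genes were called. The metM-Wnt-lung value in both tests rests on the Con arrays of wider spread. Between metM-Wnt-liver and E0771 0 members were called, where 0.0615% of all genes were called by limma. At an unadjusted p under 0.05, 3 members were higher and 1 lower, against 5.5% and 6.09% of all genes. The DIOSul minus DIO difference was called between no pair of lines for any member, where 0.497% (metM-Wnt-lung against E0771), 0.692% (metM-Wnt-liver against E0771) and 0% (metM-Wnt-lung against metM-Wnt-liver) of all genes were called. At an unadjusted p under 0.05 there were 4 lower, 5 lower and 1 higher members in these tests, against 5.38%, 5.29% and 1.93% of all genes in the same directions.

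Averaged over the 3 lines, a comparison also chosen after seeing the data, DIOSul minus DIO was lower for 10 members and higher for 0 (27% of the list), where 7.56% of all genes were called and 3.32% were lower. The spread of values was 12.77 to 13.11 in its arrays, below that of each of the 10 arrays of wider spread. Junction genes were among the 10. Esam averaged -0.79 (SE 0.14, adjusted p = 7.74e-05), with -0.99 in metM-Wnt-lung, -0.8 in metM-Wnt-liver and -0.59 in E0771. Cldn5 averaged -0.85 (SE 0.25, adjusted p = 0.0194), with -1.34 in metM-Wnt-lung, -0.21 in metM-Wnt-liver and -1.01 in E0771, and Cdh5 -0.6 (SE 0.14, adjusted p = 0.00222), with -0.74 in metM-Wnt-lung, -0.67 in metM-Wnt-liver and -0.38 in E0771. Tie1 averaged -0.67 (SE 0.14, adjusted p = 0.000747), with -1.15 in metM-Wnt-lung, -0.98 in metM-Wnt-liver and 0.12 in E0771, the only one of the 10 that was not lower in every line. The other genes were Emcn (-0.71, SE 0.18, adjusted p = 0.00701), Ramp2 (-0.68, SE 0.19, adjusted p = 0.0134), Icam2 (-0.58, SE 0.16, adjusted p = 0.0138), Sox18 (-0.62, SE 0.18, adjusted p = 0.0191), Dll4 (-0.59, SE 0.19, adjusted p = 0.0356) and S1pr1 (-0.61, SE 0.18, adjusted p = 0.0189). Not all vessel markers passed in the average. Pecam1 averaged -0.04 (SE 0.13, adjusted p = 0.921), with -0.3 in metM-Wnt-lung, -0.17 in metM-Wnt-liver and 0.36 in E0771. Kdr averaged -0.0042 (SE 0.18, adjusted p = 0.992), with -0.1, -0.6 and 0.69 in the same lines. Their averages thus join lines of opposite sign, and neither gene passed in any single line.

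**Figure D5:**
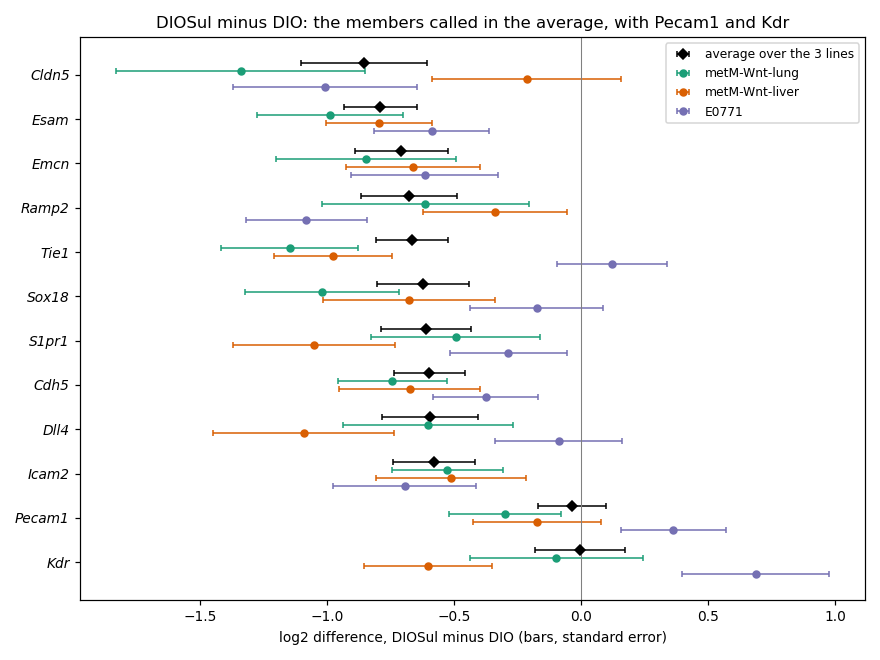
Log2 difference of DIOSul minus DIO (horizontal axis, with bars of 1 SE) in each line and averaged over the 3 lines, for the 10 members called in the average and for Pecam1 and Kdr. The averages of the 10 lie between -0.85 (Cldn5) and -0.58 (Icam2), while those of Pecam1 and Kdr lie at -0.04 and -0.0042. Both of these genes have a positive value in E0771 and negative values in the metM-Wnt lines.

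Other markers moved in the same averaged comparison. Muscle or keratinocyte markers were high in 11 of 22 DIOSul and 2 of 22 DIO tumors, and 3 of 8 keratinocyte markers passed as higher. Without the arrays high in these markers, a setting chosen after seeing the data, 2 members passed, Esam (-0.8, SE 0.19, adjusted p = 0.0114) and Emcn (-0.76, SE 0.21, adjusted p = 0.0357). Of all 19505 genes, 458 passed there. The differences of Tie1 (-0.63, SE 0.18, adjusted p = 0.0523), Cdh5 (-0.57, SE 0.18, adjusted p = 0.0746) and Icam2 (-0.62, SE 0.21, adjusted p = 0.129) stayed near their size with all arrays while their SE grew, and that of Ramp2 was smaller (-0.45, SE 0.25, adjusted p = 0.469). With the adipocyte score and the muscle score as covariates 1039 of all 19505 genes were called. Of the members 12 were then lower and 0 higher, among them Esam (-0.84, SE 0.15, adjusted p = 6.7e-05), Tie1 (-0.71, SE 0.15, adjusted p = 0.000788) and Cdh5 (-0.67, SE 0.14, adjusted p = 0.00108). Of 10 leukocyte partners of adhesion molecules 5 were higher, led by Itgal (1.43, SE 0.18, adjusted p = 4.38e-08), and 3 of 6 platelet markers were lower, among them Pf4, platelet factor 4 (-1.22, SE 0.24, adjusted p = 0.000232). Of 10 pericyte and smooth muscle markers 0 passed. Among signalling partners, Ramp3, a chain of the adrenomedullin receptor like Ramp2, was lower (-1.06, SE 0.24, adjusted p = 0.00201), as was Hes1, a target of Notch signalling (-0.57, SE 0.17, adjusted p = 0.0264). The part of the keratinocyte, leukocyte and platelet markers as covariates was not tested. In a fit of both metM-Wnt lines with the term for wider spread, Tie1 (-1.06, SE 0.18, adjusted p = 0.0019), Esam (-0.89, SE 0.18, adjusted p = 0.00468), Cdh5 and Robo4 were lower in DIOSul than in DIO tumors, where 2.18% of all genes were called.

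Within groups, many of the genes went up and down together. For each gene the deviation of a tumor from its group mean was set against the mean deviation of a core of 6 genes (Pecam1, Cdh5, Kdr, Tie1, Emcn and Esam, without the gene itself) over 79 tumors. In all, 53 such relations were computed for genes and lists, with 100000 permutations each, Benjamini-Hochberg adjustment and 1e-05 as the smallest p they can give. Of 37 members, 24 had an adjusted p of r under 0.05, all positive, 13 did not. An r over 0.5 was found for 12 members (32.4%), against 0.41% of all 19505 genes, and an r over 0.25 for 25 (67.6%), against 6% of all genes. The 6 core genes are themselves members. The closest were Mmrn2 with r = 0.68 (rho = 0.67, adjusted permutation p = 3.79e-05 and 4.42e-05; 0.64 without the 2 farthest tumors), Cdh5 with r = 0.67 (rho = 0.64, adjusted permutation p = 3.79e-05 and 4.42e-05; 0.63 without the 2 farthest tumors) and Plvap with r = 0.64 (rho = 0.72, adjusted permutation p = 3.79e-05 and 4.42e-05; 0.6 without the 2 farthest tumors). Within lines, r of Mmrn2 was 0.75 in metM-Wnt-lung, 0.71 in metM-Wnt-liver and 0.54 in E0771 tumors. All values come from the same arrays, so that a shared error of an array would enter both sides.

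The tip cell genes differed among themselves. Dll4 had r = 0.37 (rho = 0.4, adjusted permutation p = 0.00389 and 0.00247; 0.38 without the 2 farthest tumors), whereas Angpt2 (r = 0.16, adjusted permutation p = 0.225), Esm1 and Apln did not pass. In E0771 tumors alone all 4 had a positive r, 0.5 for Dll4 and 0.51 for Angpt2. Esm1 had r = -0.14 (rho = -0.07, adjusted permutation p = 0.294 and 0.613; -0.1 without the 2 farthest tumors), and within lines its r was -0.51 in metM-Wnt-lung, -0.21 in metM-Wnt-liver and 0.55 in E0771 tumors. Apln had r = 0.02 (rho = 0.08, adjusted permutation p = 0.877 and 0.598; 0.08 without the 2 farthest tumors), with -0.27, -0.07 and 0.55 in those lines. For both genes the value in E0771 was positive and those in the metM-Wnt lines negative, a difference that was not tested. Vcam1 (r = 0.03), Prox1 (0.03) and Angpt1 (-0.13) did not pass either. Esam, with r = 0.41 over all tumors, had -0.15 in E0771, and Ramp2, with 0.45, had -0.12 there. Among lists, fibroblast markers had r = 0.59 (rho = 0.6, adjusted permutation p = 3.79e-05 and 4.42e-05; 0.56 without the 2 farthest tumors) and pericyte markers r = 0.55 (rho = 0.6, adjusted permutation p = 3.79e-05 and 4.42e-05; 0.52 without the 2 farthest tumors), while skeletal muscle markers had r = 0.0039. Macrophage (r = 0.38, adjusted permutation p = 0.00227), adipocyte (r = 0.35, adjusted permutation p = 0.00223) and epithelial tumor markers (r = 0.29, adjusted permutation p = 0.0174) passed too.

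Across the 15 comparisons within lines, 16 of the 37 members were called in none, although most of them differed between lines. They were Angpt1, Angpt2, Apln, Dll4, Emcn, Eng, Icam2, Nos3 (the endothelial nitric oxide synthase), Notch4, Plvap, Podxl (the sialomucin podocalyxin), Prox1, S1pr1, Sele, Selp and Sox17. Sox17, Notch4, Icam2 and Selp were called in no comparison within or between lines, and of these Icam2 passed only in the averaged DIOSul minus DIO comparison. Nos3 was higher than in E0771 by 0.52 (SE 0.12, adjusted p = 9.1e-05) in metM-Wnt-lung tumors and 0.27 (SE 0.12, adjusted p = 0.0488) in those of metM-Wnt-liver, and Podxl by 1.15 (SE 0.13, adjusted p = 3.59e-12) and 0.91 (SE 0.14, adjusted p = 1.45e-08).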

How the data were processed

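RNA from 79 tumors was hybridised to Clariom S Mouse arrays. The deposited values are log2 signals per transcript cluster, which the authors made with SST-RMA in Transcriptome Analysis Console, and whether the 3 lines were normalized together is not given in the sources used here. The labels name TRIzol and column extraction, and place injection 5 weeks after randomization. A symbol came from the platform gene table for 19572 of 22206 transcript clusters, the other 2634 having none or several, and where a gene had more than 1 (55 genes) the brightest on average was used, which left 19505 genes. No measurement column was left out (0).

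Tests were made with limma 3.58.1 in R 4.3.3 (lmFit and eBayes), with Benjamini-Hochberg adjustment over all genes and a threshold of 0.05. Comparisons within a line came from a fit of its 4 groups. Differences between lines, the mean of the 4 group differences, came from a fit of all 12 groups, as did comparisons chosen after seeing the data. Replicates are separate mice. The members, the partner and marker lists and the tests were chosen with earlier results of these data known. Differences are given for up to 6 called members per direction with the smallest p. Where none was called, they are given for the 3 members with the smallest p. Those of Pecam1, Cdh5 and Kdr are added in DIO against Con and DIOSul against DIO within lines and in the average. The tests of whether an effect differed between lines did not follow this rule. Further names were chosen after their values were seen. A tumor counted as high in muscle or skin genes at a muscle score above 2 or a keratinocyte score above 1. The number of arrays limits the precision. Scripts were tested on simulated data. Alternatives were quantile normalization, the samples in the fit, array weights, a filter on low signals, the mean over transcript clusters, marker scores as covariates, a term for arrays of wider spread, the mouse number as a block, and leaving out each array.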

Additional observations from a re-analysis of the deposited data

Results flagged for a closer look

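In groups of 4 to 8 tumors, the Dixon test at 95% picked out a single array in 7 of 96 sets of gene and group (7.29%), and chance picks out about 1 in 20. Below the rest of their group were Cdh5 in metM-Wnt-liver Con replicate 6 (10.1, next value 10.76) and metM-Wnt-lung ConSul replicate 5 (9.8, next 10.54), Flt1 in metM-Wnt-lung Con replicate 6 (8.71, next 9.96), Pecam1 in E0771 DIO replicate 3 (9.37, next 10.02) and Vwf in E0771 DIOSul replicate 5 (4.07, next 5.17). Above the rest were Esam in metM-Wnt-liver DIOSul replicate 4 (7.2, next 6.78) and Kdr in E0771 DIOSul replicate 7 (11.38, next 10.11).

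An effect differed between groups, by a test of the difference itself, in 16 cases. The sulindac effect in DIO minus that in Con mice was 1.61 for Kdr and 5.03 for Lyve1 in metM-Wnt-lung tumors, and -1.67 for Tie1 and -1.40 for Esam in metM-Wnt-liver tumors. The DIO minus Con difference in metM-Wnt-lung minus that in E0771 tumors was -1.16 for Tie1, -1.87 for Ptprb and -4.54 for Lyve1. In metM-Wnt-lung minus metM-Wnt-liver tumors it was -2.19 for Kdr, -1.53 for Tie1, -2.37 for Ptprb, -1.61 for Sox18, -1.52 for Erg, -2.31 for Aplnr, 2.44 for Esm1, -5.44 for Lyve1 and -1.62 for S1pr1. All 16 include the metM-Wnt-lung Con or the metM-Wnt-liver ConSul arrays, which have the wider spread of values.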

How the results depend on the processing

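The counts of members called below are set against those of the report. The cause of each shift was not tested. With adipocyte and muscle scores as covariates, 1 was called in E0771 DIO minus Con and 1 in DIOSul minus DIO, 2 in metM-Wnt-lung DIO minus Con, 1 in its ConSul minus Con and 0 in its interaction (the sulindac effect in DIO minus that in Con), and in metM-Wnt-liver 1 in ConSul minus Con, 1 in DIOSul minus ConSul and 0 in the interaction. Of all 19505 genes, 261, 682, 342, 531, 110, 347, 200 and 163 were called in the same order. There Lyve1 and Ptprb turned to 1.18 and 0.36 in metM-Wnt-lung DIO minus Con, and Lyve1 to -0.81 in the interaction. The term for wider spread was used in a fit of both metM-Wnt lines, which gives the same value for both. There 0 were called in DIO minus Con (131 of all 19505 genes), 0 in ConSul minus Con (10), 0 in DIOSul minus ConSul (10) and 4 in DIOSul minus DIO (425). In that fit Ptprb and Tie1 stood at 0.014 and 0.45 in DIO minus Con, and Ptprb at 0.20 in DIOSul minus ConSul. It holds no separate DIO minus Con value of metM-Wnt-lung and no separate DIOSul minus ConSul value of metM-Wnt-liver. With all 3 lines in 1 fit, 1 was called in E0771 DIOSul minus ConSul (132 of all genes), 1 in its interaction (287), 2 in metM-Wnt-lung DIOSul minus DIO (144), 5 in its interaction (2231) and 0 in metM-Wnt-liver ConSul minus Con (2395). With only the groups compared, 1 was called in E0771 DIOSul minus DIO (1125 of all genes), 1 in metM-Wnt-liver ConSul minus Con (1332) and 5 between the metM-Wnt lines (3225). Array weights gave 4 in E0771 DIO minus Con, 10 in DIOSul minus DIO and 2 in the interaction, and 7 and 4 in the interactions of the metM-Wnt lines, lung before liver. Calls rose over all genes as well, to 3781, 4780, 871, 2781 and 703 of 19505 in the same order. With only genes above the median signal, which tests 21 members, 2 were called in the E0771 interaction, 1 in metM-Wnt-lung DIOSul minus DIO, 10 in its ConSul minus Con, 0 and 3 in metM-Wnt-liver ConSul minus Con and DIOSul minus ConSul, 20 in metM-Wnt-lung minus E0771 and 9 in metM-Wnt-lung minus metM-Wnt-liver. Of all genes above the median, 192, 127, 1948, 1028, 1218, 7932 and 3210 were called in the same order. Quantile normalization gave 1 in the metM-Wnt-lung interaction (1920 of all genes), and the mean over transcript clusters moved no count. Leaving out arrays with high muscle or skin genes, chosen after seeing the data, 1 and 0 were called in E0771 DIO minus Con and DIOSul minus DIO, 6, 5 and 0 in metM-Wnt-lung DIO minus Con, ConSul minus Con and the interaction, 2 and 0 in metM-Wnt-liver DIOSul minus ConSul and the interaction, and 2 in the averaged DIOSul minus DIO. Over all 19505 genes the counts were 595, 533, 2334, 710, 4, 1122, 79 and 458 in the same order.

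The mouse numbers did not pair the tumors (mean correlation of same-numbered deviations -0.00692 in E0771 tumors, 0.0430 in metM-Wnt-lung tumors and -0.0116 in those of metM-Wnt-liver). With the replicate block, 4 members were called in the metM-Wnt-lung interaction (2112 of all genes) and 1 in metM-Wnt-liver ConSul minus Con (1575), and no other count moved by over 1.5 times.

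Leaving out 1 array at a time gave 33 to 33 called members in metM-Wnt-lung minus E0771, 26 to 28 in metM-Wnt-liver minus E0771, 14 to 16 between the metM-Wnt lines and 9 to 12 in the averaged DIOSul minus DIO. In E0771 the range was 1 to 2 in DIO minus Con, 1 to 3 in DIOSul minus DIO and 0 to 2 in the interaction. In metM-Wnt-lung it was 7 to 15 in DIO minus Con, 14 to 17 in ConSul minus Con, 0 to 1 in DIOSul minus DIO (1 without DIO replicate 3 or 4 or DIOSul replicate 2) and 1 to 7 in the interaction (7, 4 and 5 without DIO replicate 4, DIO replicate 6 and DIOSul replicate 1). In metM-Wnt-liver it was 0 to 3 in ConSul minus Con (0 without ConSul replicate 2), 5 to 10 in DIOSul minus ConSul (5 without ConSul replicate 3 or 4) and 1 to 4 in the interaction (1 without ConSul replicate 3, and 4 without Con replicate 4, ConSul replicate 4, DIO replicate 3 or DIOSul replicate 4). In the other comparisons within lines it was 0 to 0.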
